A study of Mus musculus with 16 samples.

Results

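The genes described here encode the constitutive proteasome. They were taken as the rows of the deposited table whose symbol begins with Psma, Psmb, Psmc or Psmd and a number, leaving out named pseudogenes and the 3 immunoproteasome genes Psmb8, Psmb9 and Psmb10. The rule found 37 of the 17737 genes in the table. By role, 14 encode the 20S core (Psma1 to Psma7 and Psmb1 to Psmb7) and 17 encode the 19S regulatory particle (the ATPases Psmc1 to Psmc6, the base subunits Psmd1, Psmd2 and Psmd4, and 8 lid subunits). A further 3 (Psmd5, Psmd9 and Psmd10) are chaperones of 19S assembly that leave the finished particle. Psma8 and Psmb11 are forms used in male germ cells and in the thymus, and Psmc3ip matches by name only, since it encodes a recombination protein.

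The study sequenced RNA from the lower part of the heart ventricles of male C57BL/6 mice, which began 1 of 4 diets at 6 weeks of age and stayed on it for 6 months. The control diet was a standard LabDiet chow. The NIA and UW diets were mouse versions of the foods of the primate ageing colonies of those names, and the mNIA diet was the NIA formula changed to the sucrose and fat content of the UW one. No group carried a genetic change or a drug, the animals were assigned to diets at random, and each of the 16 libraries came from a single animal, with 4 per diet. The library codes do not spell the diets in the titles: libraries titled NIA carry MNC, those titled UW carry NC and those titled mNIA carry UC. If these letters abbreviate modified NIA, NIA and UW, codes and titles name different diets, which was not resolved. The identity of each group fed a primate formula therefore rests on its title, which the names below follow.

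The proteasome degrades proteins that carry ubiquitin chains. Its 20S core is a barrel of stacked rings, with alpha subunits gating the ends and beta subunits Psmb5, Psmb6 and Psmb7 cutting the chain inside, and the 19S particle on its ends binds ubiquitin, removes it and uses ATPases to unfold the substrate. The core has to be built in fixed proportions, and the genes are known to be induced together by the transcription factor NRF1 (Nfe2l1) when proteasome activity falls short. In the heart, proteasomes renew sarcomere proteins and clear damaged ones, and in cells exposed to interferon the catalytic subunits are replaced by Psmb8, Psmb9 and Psmb10.

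NRF1 binds antioxidant response elements, so the windows before 4 members were chosen to show the letters searched for. Capitals mark TGANNNNGC, a loose pattern for the core of that element, in which 4 positions may be any base. A match need not be an element that NRF1 binds. Each sequence runs 5′ to 3′ on the gene's strand up to the base before the RefSeq start on GRCm38.p6. Psmb5 is at chr14:54614120-54617995 on the minus strand and its window at chr14:54617996-54618145. Psmb6 is at chr11:70525357-70527858 on the plus strand and its window at chr11:70525207-70525356. Psmb3, a structural beta subunit, and Psmd12, a lid subunit, are both on the plus strand, with windows at chr11:97703374-97703433 and chr11:107479468-107479527.
Psmb5: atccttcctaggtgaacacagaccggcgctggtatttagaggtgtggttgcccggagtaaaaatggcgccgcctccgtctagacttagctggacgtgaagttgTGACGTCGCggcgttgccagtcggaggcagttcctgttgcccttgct
Psmb6: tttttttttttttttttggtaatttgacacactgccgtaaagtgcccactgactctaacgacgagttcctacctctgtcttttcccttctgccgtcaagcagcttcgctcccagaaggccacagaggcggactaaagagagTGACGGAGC
Psmb3: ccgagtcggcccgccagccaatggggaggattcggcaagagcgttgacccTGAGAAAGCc
Psmd12: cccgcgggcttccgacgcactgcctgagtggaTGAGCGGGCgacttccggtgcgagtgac

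RefSeq gave promoter windows for 30 of the 37 members, 32 windows in all, each reaching from 250 bases before the start to 50 bases after it. TGANNNNGC, read on both strands, was in 19 of the 32 windows (59.4%), beside 41.3% of the 32851 windows of all genes. By particle it was in 9 of 12 windows of 20S genes and in 6 of 15 windows of 19S genes. The letters CCAAT, also read on both strands, were in 13 of 32 windows (40.6%), beside 37.4% of all windows. These counts describe letters and were not tested. Psma8, Psmb1, Psmb2, Psmb7, Psmc3, Psmd3 and Psmd7 had no entry.

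Total expected counts were between 3870480 and 6583532 in the 12 chow, UW and mNIA libraries, and between 2278250 (replicate 4) and 63005490 (replicate 2) in the NIA group. Summed markers of heart muscle cells were at 50380 to 110400 CPM (counts scaled to a common library total by the trimmed mean of M-values), and atrial markers at 2.37 to 8.20 CPM with Sln and Bmp10 not listed in the table. Endothelial markers were highest in chow replicate 3 (3693 CPM), mNIA replicate 2 (3484 CPM) and UW replicate 1 (3035 CPM). The labels name no batch. Chow replicate 3, NIA replicates 1 and 4 and mNIA replicate 2 had the lowest quality weights of the 16 libraries (0.16 to 0.36). Limma estimated these weights from the same counts, by each library's spread around its diet mean, so they are no outside measure of sample quality. Results are also given without these libraries where they differ. In bulk ventricle, fewer cells of a type and less RNA per cell cannot be told apart.

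All 31 subunits of the particle were expressed in every library, at unequal levels. Per kilobase of transcript, the median subunit in chow hearts was at 63.6 CPM, with the 20S genes at a median of 95.9 and the 19S genes at 53.5. Psmb6, the beta subunit with caspase-like activity, was highest at 133 ± 17.7 CPM per kilobase (SD, n = 4). Psmc3, an ATPase of the 19S base, followed at 121 ± 13.9 and Psmb7, with trypsin-like activity, at 113 ± 25.8, and these 3 overlapped within their SDs. Psmd11, a lid subunit, was lowest at 23.9 ± 4.40 CPM per kilobase, next to the alpha subunit Psma2 at 29.1 ± 3.02, with overlapping SDs. Levels per length depend on the transcript model: Psma2 and Psma3 were assigned transcripts of 2911 and 2846 bases, against a median of 1162 bases for the 14 core genes. The 19S genes had a median transcript length of 1785 bases.

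**Figure D1:**
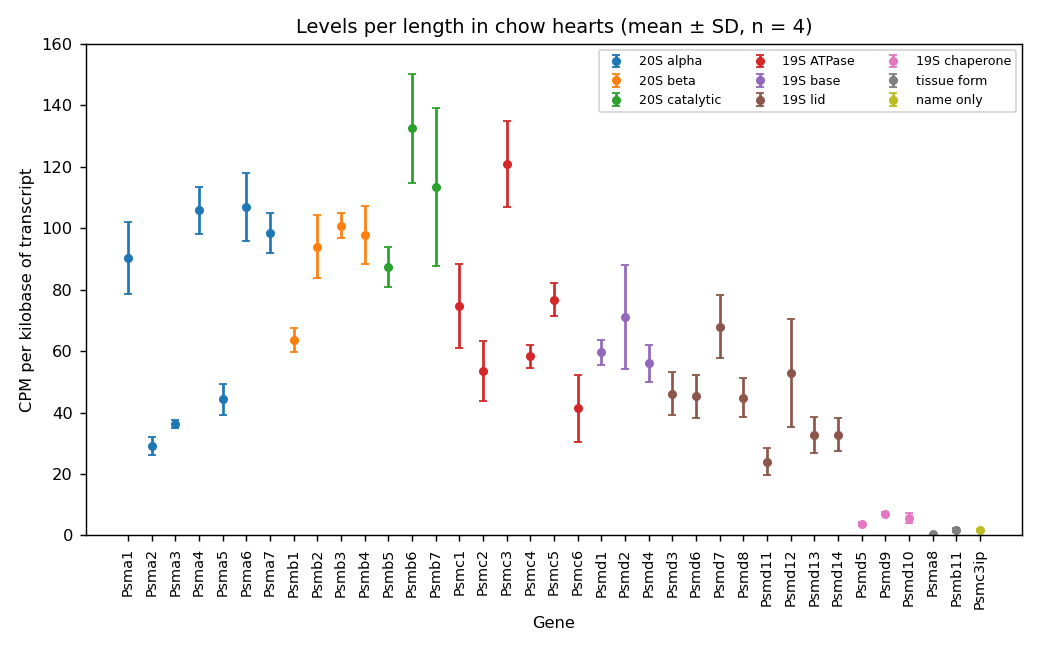
Level per kilobase of transcript (vertical axis, CPM per kilobase) of each of the 37 genes (horizontal axis, coloured by role) in chow hearts; points are means and bars SDs of 4 animals. Core genes centre on 95.9 and 19S genes on 53.5 CPM per kilobase, and the assembly chaperones and tissue forms lie near the bottom.

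The 20S median was above the 19S median in the other diets too. The 20S and 19S medians were 113 and 61.4 CPM per kilobase in NIA, 79.4 and 51.0 in UW, and 88.6 and 57.4 in mNIA hearts. Psmd11 had the lowest mean of the 31 subunits in all 4 groups. The highest mean was that of Psmb6 in chow and NIA hearts and that of Psmc3 in UW and mNIA hearts, where in mNIA it was 138.5 ± 12.4 beside 132 ± 23.7 CPM per kilobase for Psmb6 (SD, n = 4). The assembly chaperones were scarcer than the subunits they help to assemble. In chow they had 3.69 ± 0.674 (Psmd5), 7.11 ± 0.613 (Psmd9) and 5.58 ± 1.68 (Psmd10) CPM per kilobase (SD, n = 4).

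Among the tissue forms, Psma8 was at 0.605 ± 0.317 CPM in chow (SD, n = 4) and 0.195 to 2.13 CPM over the 16 libraries, and it failed the filter on low counts. The other 36 members passed. Psmb11, which replaces Psmb5 in thymic epithelium, was measured at 2.85 to 12.2 CPM. Its chow libraries 1 to 4 had 4.29, 7.71, 11.4 and 7.60 CPM, its NIA libraries 6.29, 10.3, 9.37 and 2.85, its UW libraries 7.50, 4.07, 7.59 and 5.49, and its mNIA libraries 4.51, 12.2, 6.40 and 5.34. The 4 diets overlapped, and its mean per length over the 16 libraries was the lowest of the members tested. Psmc3ip was at 1.61 to 4.19 CPM.

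No member passed an adjusted p of 0.05 in any of the 8 comparisons by edgeR's quasi-likelihood test with Benjamini-Hochberg adjustment over the 13381 genes tested. Over all genes, 0% passed in 7 of them and 0.00747% (1 gene) in mNIA against chow. The smallest adjusted p of a member was 0.486 in the joint test of the 4 diets, 0.432 for NIA, 0.977 for UW, 0.983 for mNIA and 0.938 for the 3 primate-formula diets averaged, each against the same 4 chow libraries. At an unadjusted p under 0.05 the joint test listed 3 members, Psma3, Psmb1 and Psmb2, which is 8.33% beside 6.88% of all genes. The contrasts with chow share those controls, so their values are set side by side and not counted as separate evidence.

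Members in NIA hearts had a median log2 difference from chow of 0.23, with 30 of 36 above 0, beside −0.01 over all genes tested. The 20S genes had a median of 0.45 (13 of 14 above 0) and the 19S genes 0.15 (12 of 17 above 0). Cytosolic ribosomal protein genes were at 0.71 (80 of 83 above 0), respiratory complex I genes at 0.66 (35 of 37) and genes of the chaperonin TRiC at 0.12 (6 of 8). At an unadjusted p under 0.05 there were 7 members, all higher, which were Psma3, Psma6, Psma7, Psmb1, Psmb2, Psmd10 and Psmd14. The background was 8.70% of all genes, or 6.52% counting those higher. Without NIA replicate 4 the median was 0.05, the 20S and 19S medians were 0.03 and 0.06, and 0 members were under 0.05, beside 3.73% of all genes. No member lay wholly above or wholly below the chow range, beside 1.32% and 1.91% of all genes. With limma-voom quality weights the median was −0.002, and without the 4 libraries of low weight it was −0.053.

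**Figure D2:**
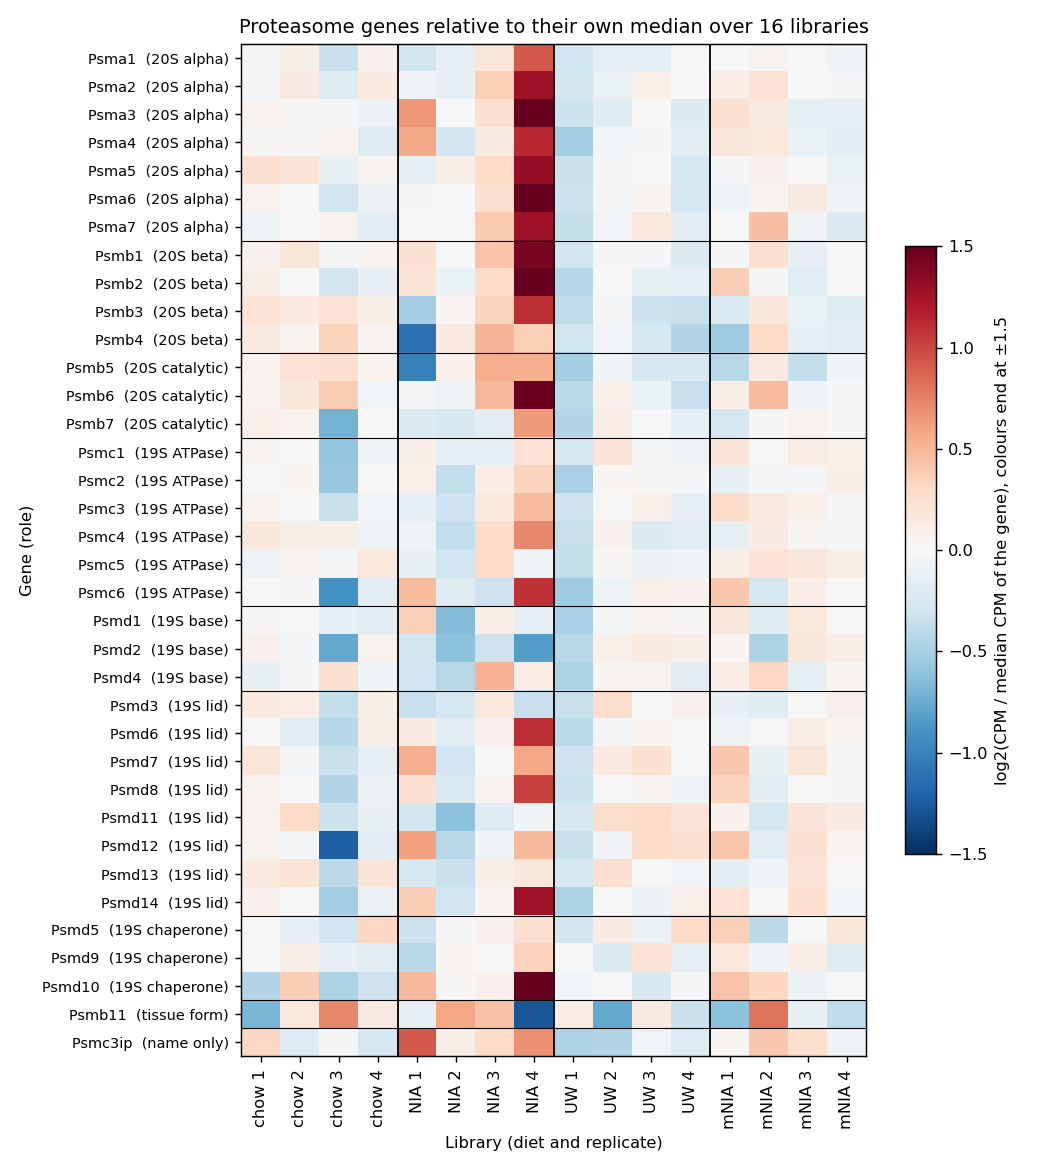
Level of each tested gene (rows, grouped by role) in each library (columns, grouped by diet) as log2 of its CPM over its own median of 16 libraries; red is higher and blue lower. NIA replicate 4 is red through the 20S rows, chow replicate 3 is blue in most 19S rows, and UW replicate 1 is pale blue throughout the subunits.

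Psma3, an alpha-ring subunit, had the smallest p in the joint test. Its levels were 108, 105, 102 and 98.2 CPM in chow replicates 1 to 4 and 164, 104, 123 and 416 in NIA. They were 83.3, 91.7, 105 and 90.1 CPM in UW and 123, 114, 94.3 and 94.3 in mNIA. NIA replicate 4 was far above every other library, NIA replicate 1 was next, and NIA replicate 2 lay inside the chow range. The log2 difference of NIA from chow was 0.95 ± 0.32 (SE), with an edgeR adjusted p of 0.432, and 0.33 without NIA replicate 4. The gene overlaps an antisense transcript, 3110056K07Rik, over 4263 bases.

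Psmb2 and Psmb1, structural subunits of the beta ring, also had their highest level in NIA replicate 4. Psmb2 was at 90.6, 84.6, 70.1 and 77.9 CPM in chow, 97.7, 79.3, 103 and 297 in NIA, 62.7, 84.8, 78.5 and 77.5 in UW, and 109, 86.0, 76.0 and 84.8 in mNIA. Psmb1 was at 111, 121, 104 and 110.1 CPM in chow, 125, 106, 143 and 287 in NIA, 87.0, 105, 104 and 92.3 in UW, and 105, 126, 97.9 and 107 in mNIA. In both genes NIA replicate 4 was far above every other library. The other NIA libraries lay within the range of the chow and mNIA ones, except that NIA replicate 3 was above it for Psmb1. The NIA difference from chow was 0.82 ± 0.32 on the log2 scale for Psmb2 (edgeR adjusted p = 0.481), and 0.20 without NIA replicate 4.

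Psma6, another alpha subunit, had 122, 118, 95.8 and 111 CPM in chow, 119, 118, 139 and 336 in NIA, 94.2, 115, 120.1 and 99.0 in UW, and 112, 121, 129 and 113 in mNIA. Apart from NIA replicate 4 the 4 diets overlapped. Psmd10, the assembly chaperone also called gankyrin, had 6.64, 11.6, 6.48 and 7.26 CPM in chow, 12.6, 9.08, 9.37 and 29.9 in NIA, 8.71, 8.96, 7.59 and 8.91 in UW, and 12.1, 11.2, 8.43 and 9.002 in mNIA. Chow replicate 2 stood above the other chow libraries and NIA replicate 4 above all others. For the 3 primate-formula diets averaged, its log2 difference from chow was 0.40 ± 0.27 (edgeR adjusted p = 0.938). It was 0.25 without NIA replicate 4, 0.64 without chow replicate 2 and 0.08 with limma-voom quality weights.

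The catalytic subunits did not share 1 pattern. Psmb5, which carries the chymotrypsin-like site, was at 73.4, 82.5, 84.4 and 73.7 CPM in chow and 50.1, 67.8, 60.2 and 60.3 in UW. It was at 35.2, 74.1, 103 and 102 CPM in NIA and 53.3, 78.2, 55.3 and 68.5 in mNIA. Every UW library lay below every chow library, and the NIA libraries spanned the lowest and the highest levels measured. The log2 difference of UW from chow was −0.40 ± 0.25 (edgeR adjusted p = 0.977).

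Psmb6 was at 97.6, 108, 125 and 92.9 CPM in chow, 93.5, 90.5, 134 and 265 in NIA, 72.0, 101, 89.4 and 75.1 in UW, and 102, 133, 92.4 and 93.5 in mNIA. Psmb7 was at 149.7, 147, 87.0 and 142 CPM in chow, 122, 120.4, 126 and 221 in NIA, 104, 153, 142 and 129 in UW, and 118, 143, 147 and 144 in mNIA. Chow replicate 3 was the lowest library for Psmb7 but the highest chow library for Psmb5 and Psmb6, so the catalytic genes moved in opposite directions within that library. The joint test gave edgeR adjusted p-values of 0.932 for Psmb5, 0.805 for Psmb6 and 0.982 for Psmb7. RefSeq names pseudogenes of Psma5, Psmb5, Psmb6 and Psmb7, with which the authors' counting may have shared reads.

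**Figure D3:**
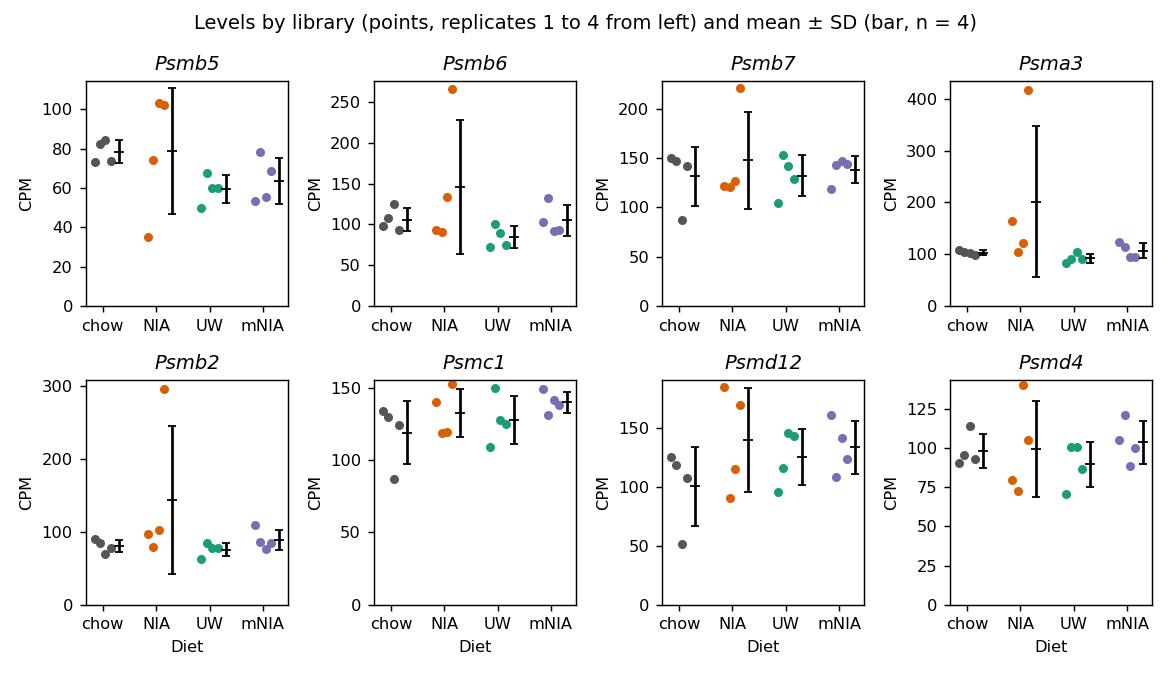
Levels in CPM (vertical axis, from 0) of 8 genes by diet (horizontal axis); points are the libraries, replicates 1 to 4 from left, and bars are mean ± SD of 4. NIA replicate 4 stands apart for Psma3, Psmb2 and Psmb6, and chow replicate 3 is the lowest point for Psmb7, Psmc1 and Psmd12.

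In UW hearts the members' median log2 difference from chow was −0.06 (15 of 36 above 0), beside −0.01 over all genes. The particles differed in sign, with 20S genes at −0.15 (13 of 14 below 0) and 19S genes at 0.01 (11 of 17 above 0). Cytosolic ribosomal protein genes were at −0.17 (76 of 83 below 0) and respiratory complex I genes at −0.27 (34 of 37 below 0). Of the complex I genes, 10 had every UW library below every chow library. All 8 genes of the chaperonin TRiC were above 0. Members with every UW library below every chow library numbered 3, all of the beta ring, Psmb3, Psmb4 and Psmb5, beside 2.48% of all genes, and 0 lay wholly above, beside 1.97%. None of the 36 had an unadjusted p under 0.05, beside 2.35% of all genes. Under upper-quartile scaling the 19S median was −0.04 and 29 of 36 members were below 0, and without chow replicate 3 the 19S median was −0.07, so the sign of the 19S group turned with the scaling and with that library.

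Psmb3 showed the UW pattern with the least spread. Its chow libraries were at 79.4, 76.6, 80.1 and 73.0 CPM and its UW libraries at 52.9, 67.6, 54.9 and 54.3. Its NIA libraries were at 48.6, 70.2, 87.0 and 148 CPM and its mNIA libraries at 58.7, 77.8, 64.2 and 60.6. The UW libraries were all below chow, with UW replicate 2 nearest to it, and mNIA libraries overlapped both. The log2 difference of UW from chow was −0.43 ± 0.25 (edgeR adjusted p = 0.977).

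In mNIA hearts the median was 0.07 (26 of 36 above 0), beside 0.01 over all genes, with the 20S genes at 0.03 and the 19S genes at 0.11. Under upper-quartile scaling the 20S median was −0.03, the 19S median 0.05 and 19 of 36 members were above 0. No member had an unadjusted p under 0.05, beside 1.38% of all genes, and none was outside the chow range in all 4 libraries, beside 0.897% of genes wholly higher and 1.26% wholly lower. The smallest p belonged to Psmd12, a lid subunit, and Psmc1, an ATPase of the base. Psmd12 was at 126, 118, 51.6 and 108 CPM in chow, 161, 108, 141 and 123 in mNIA, 184, 90.5, 116 and 169 in NIA, and 95.9, 116, 146 and 143 in UW. Psmc1 was at 134, 129.9, 86.6 and 124 CPM in chow, 149, 131, 141 and 138 in mNIA, 140.1, 119, 119 and 152 in NIA, and 109, 149.5, 128 and 125 in UW.

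For both genes chow replicate 3 was the lowest of the 16 libraries and the other chow libraries lay among the rest. The mNIA differences from chow were 0.41 ± 0.28 for Psmd12 and 0.24 ± 0.19 for Psmc1 on the log2 scale (edgeR adjusted p = 0.983 for both). Without chow replicate 3 they were 0.19 and 0.11. With the 3 primate-formula diets averaged, the members' median was 0.09 (25 of 36 above 0), beside 0.00 over all genes, and 0.01 without NIA replicate 4. None of the members had an unadjusted p under 0.05 in that contrast, beside 2.19% of all genes. None lay wholly above or below chow, beside 0.0374% and 0.0523%.

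Of the subunits that handle ubiquitin, Psmd4 binds the chain and Psmd14 cuts it off. Psmd4 was at 90.6, 95.4, 114 and 93.2 CPM in chow, 79.7, 72.9, 140.1 and 105 in NIA, 70.5, 100.4, 101 and 86.5 in UW, and 105, 121, 88.4 and 99.9 in mNIA. Psmd14 was at 57.6, 54.8, 38.5 and 51.7 CPM in chow, 70.9, 45.1, 56.4 and 132 in NIA, 39.4, 55.0, 51.8 and 57.9 in UW, and 63.8, 54.8, 65.2 and 53.6 in mNIA. All 4 diets overlapped for both, and their joint edgeR adjusted p-values were 0.970 for Psmd4 and 0.874 for Psmd14. Psmd2, the scaffold of the base, was one of the few subunits lower in NIA than in chow, at 164 ± 28.5 against 210.4 ± 50.5 CPM (SD, n = 4), a log2 difference of −0.36 ± 0.24 (edgeR adjusted p = 0.692).

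Between primate-formula diets, UW against NIA had the most members at an unadjusted p under 0.05. There were 12, of which 11 were lower in UW (Psma2 to Psma7, Psmb1, Psmb2, Psmb3, Psmb6 and Psmd10) and Psmd11 was higher. The background was 13.9% of all genes, or 8.71% counting those lower and 5.18% those higher. The median was −0.37 over members, −0.62 over 20S genes (0 of 14 above 0) and −0.15 over 19S genes, beside 0.00 over all genes. At the same unadjusted cut, 66 of 83 cytosolic ribosomal protein genes, 31 of 37 respiratory complex I genes and 0 of 8 TRiC genes were lower in UW. The smallest adjusted p was 0.169, for Psma3, with a log2 difference of −1.11 ± 0.32 by edgeR.

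Members with no overlap between UW and NIA libraries numbered 3, all lower in UW, Psmb1, Psmc3ip and Psmd10, beside 3.06% of all genes, and 0 were wholly higher, beside 3.29%. Without NIA replicate 4 there were 2 members at an unadjusted p under 0.05, beside 7.84% of genes, and the 20S and 19S medians were −0.23 and −0.07. For mNIA against NIA, 3 members were at an unadjusted p under 0.05, all lower in mNIA (Psma3, Psmb1 and Psmb2), beside 8.91% of all genes, or 5.65% counting those lower. None lay wholly above or below the NIA range, beside 1.46% and 0.882% of all genes. The 20S median was −0.45 and the 19S median 0.05. Cytosolic ribosomal protein genes were at −0.72 (80 of 83 below 0), respiratory complex I genes at −0.68 (33 of 37) and TRiC genes at 0.05 (4 of 8). Without NIA replicate 4 the 20S and 19S medians were −0.09 and 0.05. In that fit 0 members were at an unadjusted p under 0.05, beside 3.80% of all genes. These contrasts and NIA against chow share the 4 NIA libraries.

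For mNIA against UW, 33 of 36 members were above 0, beside 54.5% of all genes. The members' median was 0.15, beside 0.02 over all genes, and 0.08 without UW replicate 1. Cytosolic ribosomal protein genes were at 0.16 (81 of 83 above 0) and respiratory complex I genes at 0.26 (37 of 37). TRiC genes were at 0.05 (6 of 8). No member was at an unadjusted p under 0.05, beside 0.986% of all genes. Psmc5, an ATPase of the base, was the 1 member with all mNIA libraries above all UW libraries, beside 0.770% of all genes, and 0 were wholly below, beside 0.665%. It was at 105, 115, 111 and 105 CPM in mNIA and 77.0, 99.6, 92.7 and 95.2 in UW, but 93.9, 102, 98.0 and 110.5 in chow and 91.4, 80.5, 120.1 and 95.3 in NIA. Chow and NIA libraries overlapped both groups, and the log2 difference was 0.26 ± 0.17 (edgeR adjusted p = 1.0).

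DESeq2, limma-voom and fits on fewer libraries called some members that edgeR on 16 libraries did not. DESeq2 called Psma3 (adjusted p = 0.0248) and Psmb1 (0.0492) lower in UW than in NIA, beside 2.80% of all genes. It called 0 members in mNIA against NIA, beside 0.0224% of all genes, and 0 in the joint test, beside 1.30%. Limma-voom with quality weights called Psmd11 higher in UW than in NIA (adjusted p = 0.0402), beside 6.85% of all genes, and Psmd11 (0.0451) and Psmd2 (0.0360) higher in mNIA than in NIA, beside 14.8%. Without chow replicate 3, NIA replicates 1 and 4 and mNIA replicate 2, edgeR called Psmb4 and Psmb5 lower and Psmd11 higher in UW than in NIA, beside 11.8% of all genes. In the same fit it called Psmb4, Psmb5 and Psmb11 lower and Psmd11 and Psmd2 higher in mNIA than in NIA, beside 23.1%. Its joint test called Psmb4 (adjusted p = 0.0400) and Psmb5 (0.0467), beside 9.97% of all genes, and limma-voom's joint test called Psmd11 and Psmd2, beside 14.8%. The fit without 4 libraries rests on 2 NIA libraries. Those 4 were left out for their spread in these same counts, which lowers the spread within groups. Its adjusted p-values are therefore a description.

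The shares of members called in the fits without 4 libraries were below those of all genes (3 of 36 in UW against NIA, 5 of 36 in mNIA against NIA). Levels of Psmb4 and Psmd11 are given here because they were called in more than 1 comparison. Psmb4 was at 115, 108, 132 and 108 CPM in chow, 48.2, 116, 149 and 134 in NIA, 85.1, 102, 87.6 and 77.6 in UW, and 72.5, 129, 96.2 and 92.9 in mNIA. Psmd11 was at 70.7, 84.1, 54.6 and 63.2 CPM in chow, 56.6, 44.8, 59.7 and 66.1 in NIA, 57.6, 82.1, 82.9 and 78.8 in UW, and 71.4, 56.8, 77.9 and 74.5 in mNIA. For Psmb4, NIA replicate 1 was the lowest of the 16 libraries while NIA replicate 3 was the highest.

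NIA replicate 4 was the highest of the 16 libraries for 23 of the 36 members, 12 of the 14 core genes and 9 of the 17 19S genes, beside 23.8% of all genes tested. It was the lowest for 2 of the 36 members, beside 32.7% of all genes tested. Its scaling factor by the trimmed mean of M-values was the smallest of the 16, at 0.618 in a range up to 1.25. Relative to the median of the other 15 libraries, its 20S genes were at a median log2 of 1.28 (14 of 14 above 0) and its 19S genes at 0.34 (12 of 17), while all genes were at −0.22. Psma3 was 4.02-fold, Psmb2 3.51-fold, Psmd10 3.33-fold and Psma6 2.86-fold the median of the others there. Psmb4 was 1.32-fold and Psmd2 0.556-fold. Counts behind the subunits in this library were 93 (Psmd11) to 585 (Psma3).

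Other large complexes were also far from the median in NIA replicate 4. Its cytosolic ribosomal protein genes were at a median log2 of 1.77 (81 of 83 above 0) and its respiratory complex I genes at 1.64 (35 of 37), while the chaperonin TRiC, which folds actin and tubulin, was at 0.25 (5 of 8). Levels in this library also followed transcript length, with a Spearman rho of −0.50 between a gene's deviation and its length over all tested genes with a known length, and −0.45 over the 31 subunits. Values are a description of 1 library, and the part of length in the result was not tested for this library alone.

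The ratio of summed 20S to summed 19S CPM was 1.32 in NIA replicate 4 and 0.612 (UW replicate 4) to 0.897 (chow replicate 3) in the others. It was 0.709, 0.734, 0.897 and 0.713 in chow, 0.654, 0.873, 0.834 and 1.32 in NIA, 0.707, 0.659, 0.648 and 0.612 in UW, and 0.622, 0.838, 0.626 and 0.652 in mNIA. The 5 highest ratios were in NIA replicates 2, 3 and 4, chow replicate 3 and mNIA replicate 2. In all 5 the rho of deviation on length over all genes was below 0, at −0.25, −0.26, −0.50, −0.07 and −0.25. In the library with the lowest ratio, UW replicate 4, it was 0.47. The rho was also below 0 in chow replicates 1, 2 and 4 (−0.125, −0.086 and −0.016) and UW replicate 2 (−0.004), whose ratios were lower. Core genes have the shorter transcripts, so the particle and the length of its transcripts cannot be told apart by these ratios alone.

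**Figure D4:**
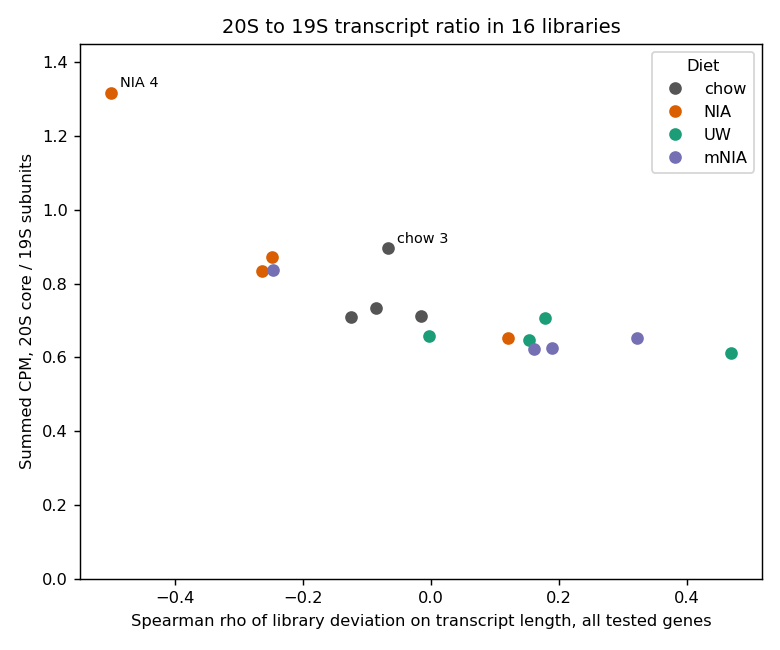
Ratio of summed 20S to summed 19S CPM (vertical axis) against the Spearman rho of each library's deviations on transcript length over all tested genes (horizontal axis), 1 point per library, coloured by diet. NIA replicate 4 lies at the upper left with a ratio of 1.32 and the UW libraries lie at 0.612 to 0.707.

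Offsets that remove each library's trend on transcript length moved the 20S medians more than the 19S medians where NIA was compared. For UW against NIA the 20S median was −0.14 in that fit and the 19S median −0.01, and 3 members were at an unadjusted p under 0.05, beside 8.67% of all genes. For NIA against chow the 20S and 19S medians were 0.14 and 0.05, with 3 members beside 8.04% of genes. For UW against chow they were −0.10 and 0.08. Across the 31 subunits the log2 difference followed length with a rho of 0.54 for UW against chow and 0.50 for UW against NIA, given as a description.

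Chow replicate 3 and UW replicate 1 were low for the members. Chow replicate 3 was the lowest of 16 for 14 of 36 members, beside 19.8% of all genes, with a median log2 deviation of −0.16 in 20S and −0.40 in 19S genes. UW replicate 1 was the lowest for 12 members, beside 4.93% of all genes, with −0.41 in 20S and −0.35 in 19S genes, and none of the 31 subunits was above its mean there. Both libraries were among the 3 with most endothelial marker signal, and heart muscle markers were at 56220 CPM in chow replicate 3 and 54460 in UW replicate 1. The other library of those 3, mNIA replicate 2, had a median deviation of 0.04 over the 36 members, and NIA replicate 2, with the lowest heart muscle sum (50380 CPM), had −0.18. The part of cell makeup in these levels was not tested.

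The immunoproteasome counterparts were scarcer than the constitutive catalytic genes in all libraries. Counts of Psmb8 were 16.6% to 47.7% of Psmb5 (median 23.8%), those of Psmb9 2.01% to 17.2% of Psmb6 (7.63%), and those of Psmb10 14.1% to 48.8% of Psmb7 (21.2%). Exact 2-sided permutation tests of the log2 ratio, 12 in all, gave Benjamini-Hochberg adjusted p-values of 0.72 or more. The largest difference from chow was −1.03 for Psmb9/Psmb6 in NIA (exact permutation p = 0.257, adjusted p = 0.72), with ratios of −5.63, −3.27, −3.68 and −5.30 there and −3.56, −3.79, −2.71 and −3.70 in chow. Without NIA replicate 1 that difference was −0.64, and without NIA replicate 2 it was −1.43. With 4 against 4 samples the smallest p possible was 0.0286.

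Psmb8/Psmb5 was highest in UW replicate 1 (−1.07) and chow replicate 3 (−1.09), where it stood above all other libraries, at −2.59 to −1.80. For Psmb10/Psmb7, chow replicate 3 was at −1.03, beside −2.26 to −2.21 in the other chow libraries. Over the 31 subunits both libraries were low, but in chow replicate 3 Psmb5, the denominator of the first ratio, was at the highest level of the chow group. Psmb8 itself was at 39.6 CPM in chow replicate 3, beside 15.2 to 21.1 CPM in the other chow libraries.

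**Figure D5:**
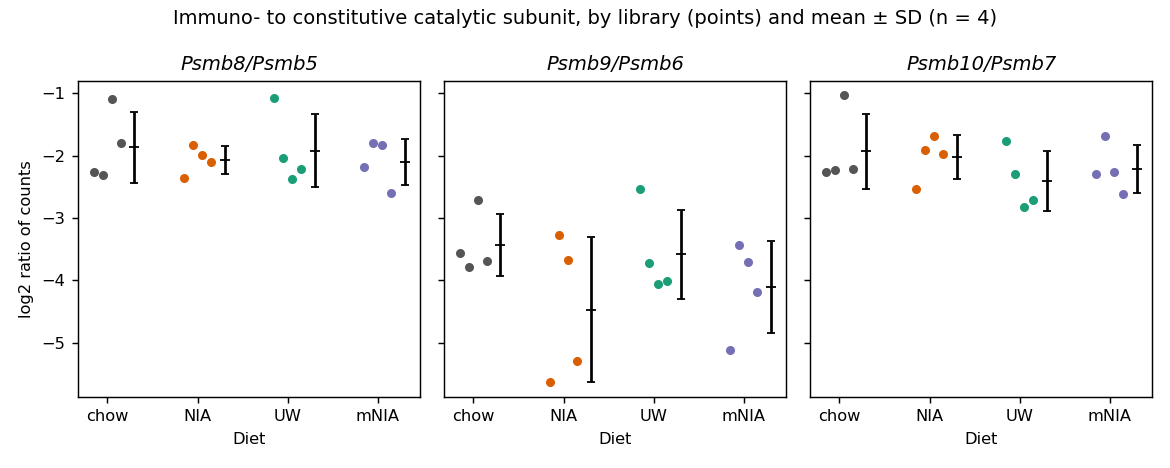
Log2 ratio of counts (vertical axis) of each immunoproteasome catalytic gene to the constitutive gene it replaces, by diet (horizontal axis); points are libraries and bars mean ± SD of 4. Chow replicate 3 is the top chow point in all 3 panels and the NIA libraries spread from −5.63 to −3.27 for Psmb9/Psmb6.

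Genes that build, bind or control the proteasome were followed as lists, and 0 of their members were called in any contrast by edgeR. The list of genes linked to NRF1 held Nfe2l1, Nfe2l2, Ddi2, Ngly1, Syvn1, Sel1l, Fbxw7 and Btrc, and its median is not a measure of NRF1 activity. At an unadjusted p under 0.05, NIA against chow had 0 of 5 core assembly factors and 1 of 5 activators and inhibitors (Psme1, higher). It had 3 of 7 other bound proteins (Sem1, Uchl5 and Ecpas, higher) and 0 of 8 genes linked to NRF1, beside 8.70% of all genes. Median log2 differences of these lists were 0.33, 0.21, 0.46 and −0.18. In NIA replicate 4 alone, against the median of the other 15 libraries, they were at 1.03, 0.30, 0.85 and −0.26. In UW against chow the same lists had 0 such genes, beside 2.35% of all genes, with medians of −0.20, 0.00, 0.13 and 0.20. In mNIA against chow they had 0, beside 1.38%, with medians of −0.14, 0.14, 0.35 and 0.13. Ubiquitin genes with E1, shuttle factors with p97, and muscle ubiquitin ligases with FoxO-linked genes had 0 such genes against chow in all 3 diets.

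Ecpas, an adaptor that tethers the 20S core to the 19S particle, had the widest spread. It was at 527, 479, 639.9 and 459 CPM in chow, 3125, 490.4, 740.0 and 3929 in NIA, 409, 488, 682 and 531 in UW, and 1513, 669.8, 590.1 and 511 in mNIA. NIA replicates 1 and 4 and mNIA replicate 1 were above all others, and the remaining NIA and mNIA libraries were near or within the chow range. The scaling factor was smallest in the same libraries, at 0.759 and 0.618 in NIA replicates 1 and 4 and 0.892 in mNIA replicate 1. The part of scaling in this spread was not tested. The log2 difference of NIA from chow was 1.98 ± 0.53 (edgeR adjusted p = 0.343).

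Pomp, the chaperone that completes the core, was at 92.9, 94.6, 118 and 93.9 CPM in chow, 106, 87.6, 123 and 189 in NIA, 63.8, 95.1, 85.5 and 72.7 in UW, and 81.5, 113, 81.2 and 87.3 in mNIA. NIA replicate 4 was its highest library, as for most core genes. Nfe2l1, which encodes NRF1, was at 713, 684, 318 and 611 CPM in chow, 713, 447, 357 and 549 in NIA, 518, 711, 729.7 and 809.9 in UW, and 758, 367, 767 and 770.5 in mNIA. Its lowest libraries were chow replicate 3, NIA replicate 3 and mNIA replicate 2, and NIA replicate 4 lay inside the range of the others. The log2 difference of NIA from chow was −0.17 ± 0.31 for Nfe2l1 (edgeR adjusted p = 0.921) and 0.33 ± 0.23 for Pomp (0.708).

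The remaining subunits are given by their ranges over the 16 libraries. In the alpha ring, Psma1 was at 87.9 to 209.8 CPM, Psma2 at 69.0 to 201, Psma4 at 88.6 to 274, Psma5 at 40.7 to 127 and Psma7 at 72.2 to 224, each highest in NIA replicate 4. Without that library their upper ends were 125, 107, 185, 63.1 and 126 CPM. Among the ATPases, Psmc2 was at 69.5 to 130.2 CPM, Psmc3 at 165 to 289, Psmc4 at 61.6 to 132 and Psmc6 at 57.1 to 228. Psmd1 was at 124 to 249 CPM, Psmd3 at 77.0 to 119, Psmd6 at 50.2 to 146, Psmd7 at 89.1 to 169, Psmd8 at 70.7 to 194 and Psmd13 at 47.5 to 73.5.

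The coefficient of variation over the 16 libraries was smallest for Psmc5 (11.7%), Psmc1 (12.9%), Psmd9 (12.9%) and Psmd13 (14.1%), which are an ATPase pair, a chaperone and a lid subunit. It was largest among tested members for Psma3 (63.2%), Psmb2 (55.8%) and Psmd10 (52.3%). Without NIA replicate 4 those 3 were at 18.3%, 14.5% and 20.8%. Psmb4 (25.4% with and without it) and Psmb5 (25.8% and 24.2%) kept their spread, since NIA replicates 1 and 3 held the extremes.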

How the data were processed

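The deposited table holds expected counts per gene made by the authors, which need not be whole; the submitters' processing notes name BWA, DESeq2 and mm10 with no versions, and the counter and gene models are not given in the sources used here. Whether counting used strand is not stated. Values were rounded to whole counts. Genes were kept by filterByExpr with diet as group (13381 kept, 4356 not), scaled by the trimmed mean of M-values, and fitted with edgeR 4.0.16 (quasi-likelihood, robust, 1 mean per diet, 2-sided) under R 4.3.3; the Benjamini-Hochberg adjustment covered every gene kept. The procedure was also run on simulated counts with changes set in NIA. That simulation held no outlying library and no length trend, so it cannot speak to either. The common biological coefficient of variation was 0.278. Values are CPM with SD over 4 animals. The SE beside a log2 difference was worked back as its size over the square root of the quasi-likelihood F, and is approximate. Exact permutation tests used log2 ratios of counts plus 0.5 (scipy 1.17.1). Transcript lengths (98.4% of genes) came from the GENCODE basic annotation, using the longest principal transcript or else the longest basic one. Promoters came from RefSeq GRCm38.p6. Alternatives were RLE and upper-quartile scaling, DESeq2 1.42.0, limma-voom with quality weights (limma 3.58.1), other filters, a replicate block, removal of a length trend, fits of 2 groups alone and fits without some libraries.

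The members and lists were chosen with earlier results of these data known. Members were described in full if catalytic, if Psmd4, Psmd14, Psmc1 or Psma3, if among the 4 smallest p-values of the joint test or the 2 smallest of a contrast with chow, or if highest or lowest per length. Psmb4, Psmc5, Psmd11 and Psmd2, and the non-members Ecpas, Pomp, Nfe2l1 and Psmb8, were described after their values were seen. Cell type lists for fibroblasts (821 to 1475 CPM summed), pericytes and smooth muscle (989 to 1352), macrophages (123 to 358), lymphocytes (1.37 to 7.37), erythroid cells (1169 to 7280), adipocytes (0 to 0.670) and skeletal muscle (1510.0 to 2709) were also summed. Depth limits the precision of low counts, and counts from 4 animals a group set the error of each mean.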

Additional observations from a re-analysis of the deposited data

Results flagged for a closer look

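A single library stood far from the other 3 of its group (Dixon's test at its 95% critical value) in 9 of 72 groups of 4 values examined. Chance alone flags about 1 group in 20 only where groups are unrelated and not chosen by their values. Here genes share libraries, and Psmb2, Psmb3, Psma6 and Psmd10 were picked by small p-values in these data. The 9 flags are therefore a description and cannot be set against that rate. In chow, Psmb7 was at 87.0 CPM in replicate 3 beside 142 to 149.7 in the others. The log2 ratio of Psmb10 to Psmb7 was −1.03 in the same library, beside −2.26 to −2.21. Psmd10 was at 11.6 CPM in chow replicate 2, beside 6.48 to 7.26.

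In NIA replicate 4, Psmb7 was at 221 CPM beside 120.4 to 126, Psmb2 at 297 beside 79.3 to 103, Psma6 at 336 beside 118 to 139, and Psmd10 at 29.9 beside 9.08 to 12.6. Psmb3 was at 67.6 CPM in UW replicate 2, beside 52.9 to 54.9. Psmb7 was at 118 CPM in mNIA replicate 1, beside 143 to 147. Of these 9 values, 4 came from NIA replicate 4 and 2 from chow replicate 3, and Psmb7 was involved in 4.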

How the results depend on the processing

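The count of members called, 0 in all 8 comparisons by edgeR, was 0 under the alternatives except the following. In the joint test limma-voom with quality weights gave 2 (Psmd11 and Psmd2) and the fit without chow replicate 3, NIA replicates 1 and 4 and mNIA replicate 2 gave 2 (Psmb4 and Psmb5). For UW against NIA, DESeq2 gave 2, limma-voom 1, the fit without the 4 libraries 3, and leaving out single libraries 0 to 1, the 1 being Psma3 without NIA replicate 2, where 1.61% of all genes were called. For mNIA against NIA, limma-voom gave 2 and the fit without the 4 libraries 5. For NIA against chow the 0 members stood beside 0.949% of all genes with DESeq2 and 0.209% with limma-voom. They stood beside 1.63% without the 4 libraries and 0.862% without NIA replicate 2. In the joint test without NIA replicate 2, 0 members stood beside 0.817% of all genes. Psmb5 in the joint test had an adjusted p of 0.0467 without the 4 libraries, beside 0.932 in edgeR on all 16. Those 4 libraries were chosen by their spread in these counts.

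The members' median log2 difference moved most where NIA was compared. For NIA against chow it was 0.23, and −0.002 with limma-voom and −0.053 without the 4 libraries. For UW against NIA it was −0.37, and −0.043 with limma-voom, −0.057 with the length trend removed, −0.079 without NIA replicates 1 and 4, −0.081 without the 4 libraries, and −0.50 to −0.10 leaving out single libraries. For mNIA against NIA it was −0.22, and 0.034, 0.0094, 0.025 and 0.033 in the same 4 fits, and −0.34 to 0.019 leaving out single libraries. For single libraries left out, the range was 0.05 to 0.34 for NIA against chow, −0.11 to 0.01 for UW, 0.02 to 0.11 for mNIA, 0.01 to 0.12 for the primate-formula mean and 0.08 to 0.18 for mNIA against UW. The cause of these moves was not tested beyond the libraries and the trend each fit removes.

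Of the 12 log2 ratio differences, 8 changed sign when single libraries were left out. Against chow, Psmb8/Psmb5 ranged from −0.317 to 0.0916 for all primate-formula samples, −0.355 to 0.0533 for NIA, −0.344 to 0.200 for UW and −0.388 to 0.021 for mNIA. Psmb9/Psmb6 ranged from −0.492 to 0.0998 for UW. Psmb10/Psmb7 ranged from −0.391 to 0.0171 for all primate-formula samples, −0.206 to 0.208 for NIA and −0.463 to 0.0132 for mNIA. The highest value of each came without chow replicate 3. The other 4 stayed below 0, at −0.754 to −0.373 (all primate-formula samples), −1.43 to −0.644 (NIA) and −0.899 to −0.339 (mNIA) for Psmb9/Psmb6 and −0.680 to −0.170 (UW) for Psmb10/Psmb7. Differences of single genes moved in size: for NIA against chow, Psma3 was at 0.10 to 1.05 and Psmb2 at 0.08 to 0.90 over the settings that leave out no single library.

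With the replicate number as a block, 0 members were called in each comparison, beside 0 of all 13381 genes. The numbers were not taken to pair the samples. Over 24 pairs of same-numbered libraries the deviations correlated at −0.579 to 0.607, 9 above 0.1. A library correlated best with its own number in 9 of 48 comparisons. Outlying libraries weigh on these correlations, so they cannot decide whether same-numbered libraries were paired. Members with few counts, such as Psmb11 (4 counts in NIA replicate 4), are the least precise.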
